A study of Mus musculus with 15 samples.

Results

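The 6 genes described here are 2 ligands, Hbegf and Nrg1, and 4 receptors, Egfr, Erbb2, Erbb3 and Erbb4, of the epidermal growth factor (EGF) family. They were taken by name from a joined table of unique molecular identifier (UMI) counts for 16809 genes, and all 6 are in it. The table holds Drop-seq, a droplet method that tags the RNA of single cells, of hearts of C57BL6/N mouse embryos at E14.5. It covers 7 libraries labelled wild type (WT; replicates 1 to 7 from litters 1, 2, 3 and 4) and 8 libraries labelled Adamts19-/- (KO). The KO libraries carry 1 of 2 alleles: tm4a in replicates 1 to 4 (litters 5 and 6) and tm4b in replicates 5 to 8 (litter 7). No litter holds both genotypes, and tm4b and litter 7 cannot be told apart. One flow cell carried all 8 KO libraries and WT replicate 5, while 6 WT libraries ran on different ones. The sources used here do not give how many embryos made up a library or which part of Adamts19 each allele removes. The p-values therefore measure the spread between libraries, which may in part be technical.

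ErbB proteins are receptor tyrosine kinases that work in pairs: a ligand binds one receptor, which then pairs with a second and starts the Ras-MAPK and PI3K-Akt cascades. Neuregulin 1, the product of Nrg1, binds ERBB3 and ERBB4, while HB-EGF, the product of Hbegf, is cut from a membrane precursor and binds EGFR and ERBB4. ERBB2 has no known ligand of its own and serves as a partner, and ERBB3 has very weak kinase activity, so both depend on pairing. In the developing heart, neuregulin from the endocardium acting on ERBB2 and ERBB4 of the myocardium is needed for trabeculation, ERBB3 is needed in the endocardial cushions, and HB-EGF and EGFR limit the growth of the valves.

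In the GENCODE M21 annotation of GRCm38, all 6 members are protein-coding. Hbegf lies at chr18:36504927-36515805 on the minus strand and Nrg1 at chr8:31814551-32884029 on the minus strand. The targeted gene, Adamts19, is on the same chromosome as Hbegf, at chr18:58836667-59054060 on the plus strand. Whether this linkage has a part in any Hbegf difference by genotype was not tested. Erbb2 lies at chr11:98412470-98437716 on the plus strand, and Egfr at chr11:16752203-16918158 on the plus strand. Erbb3 lies at chr10:128567523-128589652 and Erbb4 at chr1:68032186-69108059, both on the minus strand. The table has 1 count per gene and cell, so splice forms are not separated.

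Each library held 5.48e+06 to 1.13e+07 UMIs and kept 2553 to 4521 cells, 50775 in all, and WT replicates 1 to 4 had the deepest cells (a median of 1924 to 2089 UMIs a cell, against 1328 to 1892 in the other 11 libraries). Clustering without the members gave 22 clusters, of which 18 fell into 9 classes named from marker genes: cardiomyocyte-like, endocardial-like, valve endothelial-like, vascular endothelial-like, valve interstitial-like, fibroblast-like, mural-like, epicardial-like and macrophage-like. The valve endothelial-like class is 1 cluster whose 10 leading genes hold 2 valve endothelial markers (Edn1, Cldn11) and 2 endocardial ones (Hapln1, Cytl1), so its name is the least certain. The larger valve interstitial-like cluster had 3 markers of the fibroblast list among its leading genes (Meox1, Dpt, Lum) beside 4 of its own. Across libraries, 186 barcode sequences occurred more than once. The targeted gene was low in every KO library: over all cells, Adamts19 had 15.8, 29.1 and 49.9 CPM (UMIs of the gene scaled to a total of 1e+06 for the library or class sum; lowest, median and highest of 7 WT libraries) and 5.28, 6.04 and 8.60 CPM in the 8 KO libraries, a log2 fold change of -2.17 ± 0.21 (SE; edgeR quasi-likelihood test, adjusted p = 3.8e-05). The groups did not overlap, and some counts remained in every KO library.

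The source classes of the ligands differed but overlapped in the valve endothelial-like class. Hbegf was found in every class and was by far the highest in valve endothelial-like cells, with 387, 802 and 946 CPM (lowest, median and highest of the 7 WT libraries). The next class in order, mural-like cells, had a mean of 196 ± 109 CPM (SD, n = 7), and no WT library of it reached the lowest valve endothelial-like value. From there the means fell in small steps that the spread between libraries covered: valve interstitial-like 185 ± 112, epicardial-like 123 ± 63.3, vascular endothelial-like 97.8 ± 41.0, macrophage-like 94.4 ± 62.1, fibroblast-like 82.7 ± 25.8, endocardial-like 71.6 ± 25.6 and cardiomyocyte-like 57.6 ± 7.40 CPM. Over all 15 libraries, valve endothelial-like cells were 3.23% of kept cells and held 19.5% of the 15899 Hbegf UMIs. Cardiomyocyte-like cells, 42.5% of kept cells, held the larger share of 28.4%. Their share of all UMIs is above their share of cells: 2.82e+07 of 5.63e+07 UMIs in WT and 3.30e+07 of 6.57e+07 in KO libraries. A UMI of Hbegf was found in 37.7% of valve endothelial-like WT cells (266 of 706; 95% exact Clopper-Pearson interval 34.1 to 41.4%; median 1710 UMIs a cell). In a cluster of 144 erythroid-like cells of all libraries, which should lack the gene, 4 cells had a UMI (median 2664 UMIs a cell), and their 9 UMIs made 22.3 CPM. Such intervals cover counting error only.

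Nrg1 was found mainly in 2 classes. Endocardial-like cells had 32.3, 39.6 and 54.8 CPM in the WT libraries and valve endothelial-like cells 13.0, 35.3 and 45.4 CPM, and these neighbours overlapped. All other classes had WT means under 5 CPM, led by mural-like cells at 4.82 ± 2.01 CPM, and cardiomyocyte-like cells were at the bottom with 0.308 ± 0.210 CPM (9 UMIs in 7 libraries). Together the endocardial-like class (61.7%) and the valve endothelial-like class (17.5%) held most of the 810 Nrg1 UMIs. With cells thinned to 1000 UMIs, 4.59% of endocardial-like WT cells had a UMI of Nrg1 (8.04% before thinning, at a median of 1780 UMIs a cell). In cardiomyocyte-like WT cells, which should lack the gene, the share was 0.0449% (0.0969% before thinning, at a median of 2150 UMIs). Thinning left out 605 endocardial-like and 2599 cardiomyocyte-like cells.

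**Figure D1:**
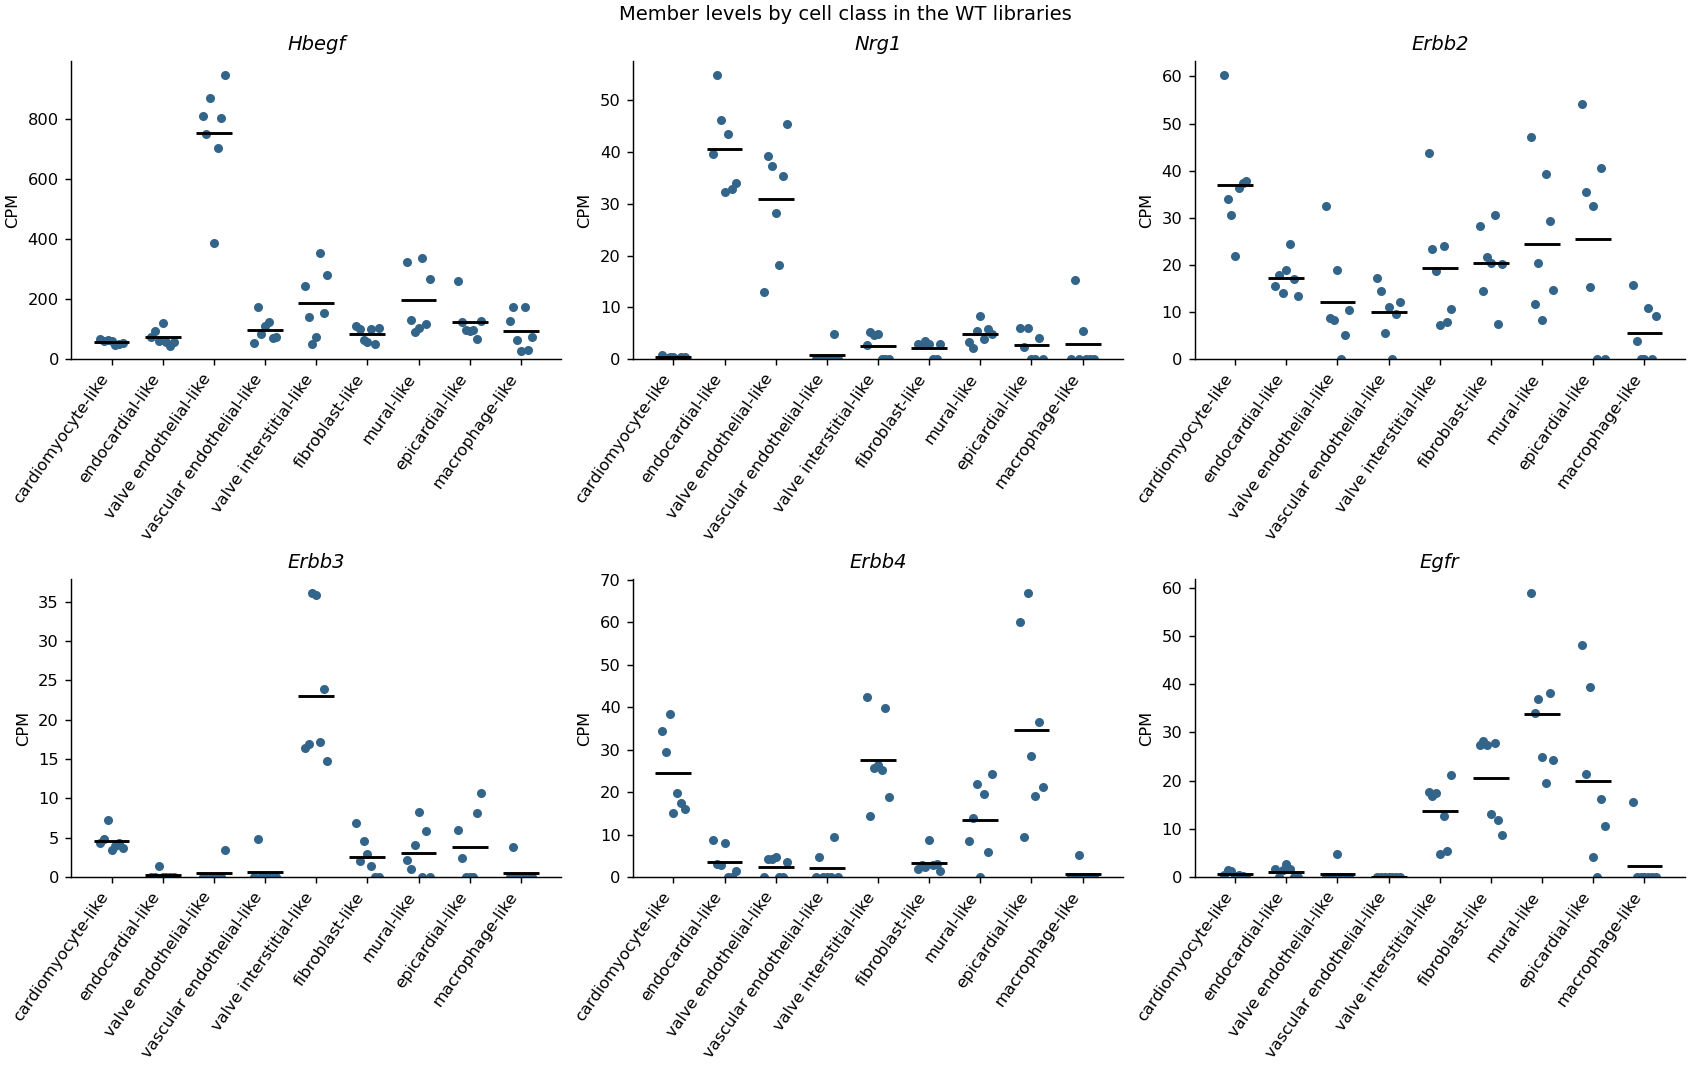
Levels of the 6 members in 9 cell classes of the WT libraries. Each point is 1 of 7 libraries, in CPM of the class sum on a linear axis from 0, and the bar is their mean; each panel has its own scale. Hbegf peaks in valve endothelial-like cells, Nrg1 in the endocardial-like and valve endothelial-like classes, and Erbb3 in valve interstitial-like cells.

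The receptors peaked in other classes than Nrg1, and no receptor had its highest mean in an endothelial class. Erbb2 was the most widely found. Cardiomyocyte-like cells had 21.8, 36.3 and 60.3 CPM of it in the WT libraries, epicardial-like cells a mean of 25.4 ± 20.8 CPM, and the order below them, down to 5.60 ± 6.27 CPM in macrophage-like cells, had no step larger than the spread. Cardiomyocyte-like cells, 42.5% of all kept cells with a larger share of all UMIs, held 65.8% of the 3098 Erbb2 UMIs.

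Erbb3, the neuregulin receptor with little kinase activity, was set apart in valve interstitial-like cells, which had 14.8, 17.2 and 36.1 CPM in the WT libraries. Cardiomyocyte-like cells came next with a mean of 4.56 ± 1.28 CPM, and no WT library of theirs (3.44 to 7.27 CPM) reached the lowest valve interstitial-like one. In endocardial-like cells only 2 UMIs of Erbb3 were counted in the 15 libraries together. Outside the 9 classes, Erbb3 was highest in a cluster of 275 cells led by melanocyte, neuronal and epithelial genes (Dct, Stmn2, Nefl, Epcam), with 67 UMIs or 106 CPM over all libraries. In that cluster Erbb2 had 10 UMIs and Erbb4 had 2.

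Erbb4, a receptor for both ligands, was shared by 3 classes that did not differ beyond their spread: epicardial-like 34.5 ± 21.5, valve interstitial-like 27.5 ± 10.2 and cardiomyocyte-like 24.4 ± 9.53 CPM. Mural-like cells had 13.4 ± 9.02 CPM, and no other class had a mean above 3.45 ± 3.57 CPM, that of endocardial-like cells. Cardiomyocyte-like cells held 73.0% of the 2162 Erbb4 UMIs.

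Egfr, the HB-EGF receptor, had the opposite place to Erbb2 and Erbb4 with respect to the myocardium. Mural-like cells had 19.6, 34.1 and 58.8 CPM in the WT libraries, followed by fibroblast-like 20.6 ± 8.90, epicardial-like 19.97 ± 17.9 and valve interstitial-like 13.7 ± 6.41 CPM. Cardiomyocyte-like cells had 0.587 ± 0.554 CPM. Fibroblast-like cells held 32.5% and mural-like cells 31.3% of the 974 Egfr UMIs, and cardiomyocyte-like cells 3.70%. In WT vascular endothelial-like cells no Egfr UMI was counted, which allows up to 2.26 CPM (3 counts in the 7 libraries together).

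To test these patterns within libraries, each member's log2(CPM + 10) was compared between 2 classes of the same library over 15 libraries, with the two-sided exact sign-flip test. Its smallest possible p is 6.1e-05, and adjusted p-values (Benjamini-Hochberg) are over all genes of the pair. The test ran on 48 member and pair combinations over 9 pairs, of which 27 passed an adjusted p of 0.05. Differences on this scale understate the fold of genes near or under 10 CPM. Between classes, many genes differ, and the shares given for each pair below are over all genes tested, so a passing member is not unusual.

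Hbegf was higher in valve endothelial-like than in endocardial-like cells by 3.03 ± 0.59 (SD) log2 units, in 15 of 15 libraries (exact sign-flip test, adjusted p = 0.00108), against a median of -0.04 over all genes of that pair, of which 22.3% passed. Nrg1 did not pass between these 2 classes (-0.27 ± 0.77, higher in 5 libraries and lower in 10; adjusted p = 0.386). Against cardiomyocyte-like cells, endocardial-like cells had Nrg1 higher by 2.29 ± 0.23, again in 15 of 15 libraries (adjusted p = 0.000144; 75.3% of all genes passed, median 0.12). Vascular endothelial-like cells, an endothelium of another bed, had Nrg1 lower than endocardial-like cells by 2.25 ± 0.31 (-2.25; 15 of 15 libraries; adjusted p = 0.000491; 46.2% of genes passed, median -0.11).

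The receptors Erbb4 and Erbb3 were lower in endocardial-like than in cardiomyocyte-like cells in 15 of 15 libraries, at -1.54 ± 0.39 and -0.52 ± 0.14 (both adjusted p = 0.000144), and Erbb2 was lower in 14 of 15, at -0.61 ± 0.42 (adjusted p = 0.000368). Valve interstitial-like cells, which form the body of the leaflets, had Erbb3 higher than fibroblast-like cells by 1.43 ± 0.39 and Erbb4 by 1.31 ± 0.44, each in 15 of 15 libraries (both adjusted p = 0.000488; 45.2% of genes passed, median 0.06). Erbb2 did not separate these 2 mesenchymal classes (0.00 ± 0.38; adjusted p = 0.988), and Egfr fell short of the threshold (-0.33 ± 0.50; adjusted p = 0.0509). Against cardiomyocyte-like cells, valve interstitial-like cells had Erbb3 higher by 1.11 ± 0.32, Egfr by 1.25 ± 0.43 and Erbb2 lower at -0.74 ± 0.34, each in 15 of 15 libraries (all adjusted p = 0.000162; 73.2% of genes passed, median 0.16). Erbb4 did not pass between them (-0.12 ± 0.53; adjusted p = 0.429).

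Fibroblast-like cells had Egfr higher than cardiomyocyte-like cells by 1.58 ± 0.32, and Erbb2 and Erbb4 lower at -0.74 ± 0.36 and -1.43 ± 0.38. Each held in 15 of 15 libraries (exact sign-flip test, all adjusted p = 0.000148; 74.6% of genes passed, median 0.10). In fibroblast-like WT libraries Erbb2 was still about as high as Egfr, at 20.4 ± 7.85 against 20.6 ± 8.90 CPM. Epicardial-like cells exceeded fibroblast-like cells in Erbb4 by 1.49 ± 0.68 in 15 of 15 libraries (adjusted p = 0.000535) and in Hbegf by 0.78 ± 0.52 in 14 of 15 (adjusted p = 0.000824), where 40.8% of genes passed with a median of -0.04. Among cardiomyocytes, the atrial-type cells had Erbb2 higher than the rest by 0.45 ± 0.23 in 15 of 15 libraries (adjusted p = 0.000515) and Erbb4 by 0.43 ± 0.28 in 14 of 15 (adjusted p = 0.00138), with 40.4% of genes passing and a median of 0.00. Erbb3 passed in the other direction, at -0.29 ± 0.30, lower in 13 of 15 libraries (adjusted p = 0.0127). With cells thinned to 1000 UMIs, the Erbb2 difference was 0.28 and no longer passed (adjusted p = 0.153), nor did those of Erbb4 (0.32; adjusted p = 0.0665) and Erbb3 (-0.084; adjusted p = 0.579). No member passed between trabecular-type and other ventricular cardiomyocytes, where 31.5% of genes did; Erbb2 came nearest (0.25 ± 0.34; adjusted p = 0.0556).

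**Figure D2:**
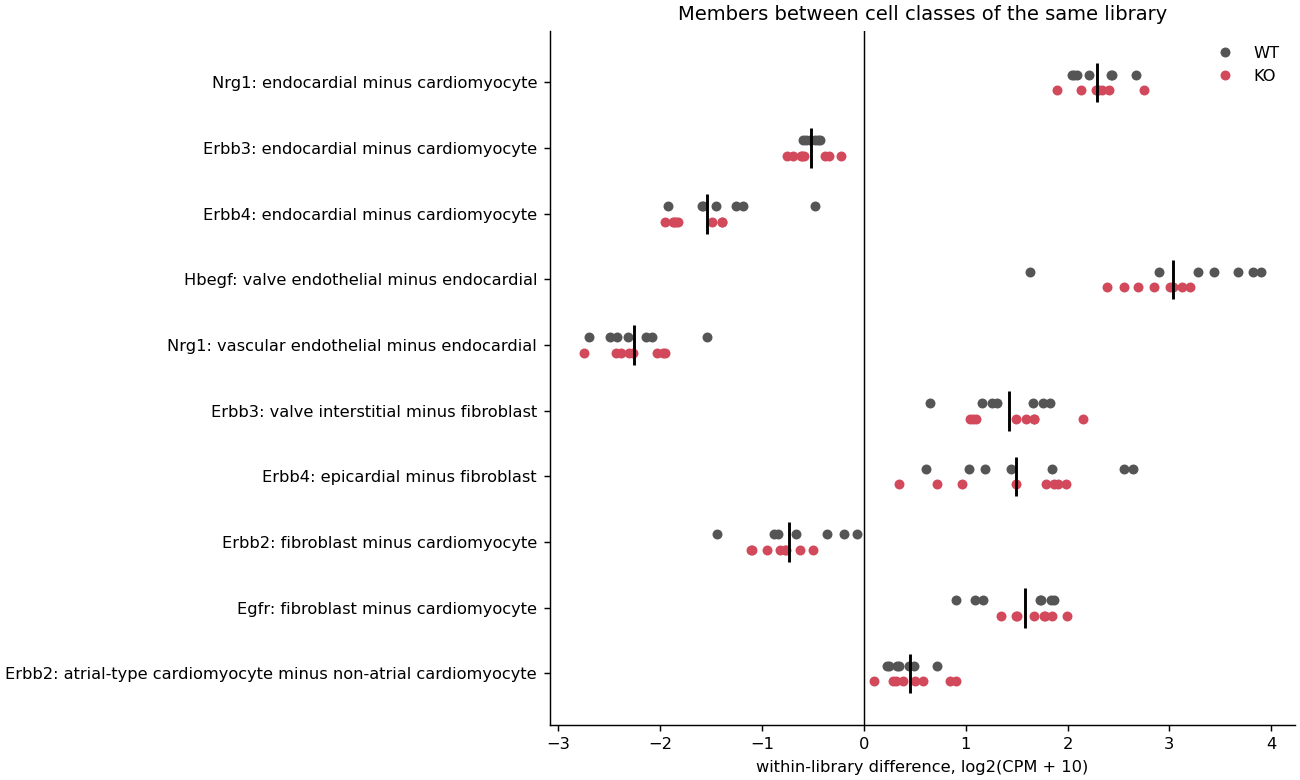
Within-library differences of the members between cell classes, for 10 combinations of a member and a pair of classes. Each point is 1 library (grey WT, red KO), the black bar is the mean of 15, and the x axis is the difference in log2(CPM + 10). All 15 points of each row lie on one side of 0.

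Single cells with UMIs of 2 receptors were few at this depth. In cardiomyocyte-like cells, 214 of 21554 had a UMI of both Erbb2 and Erbb4, where the product of the 2 shares gives 111, and cells with more UMIs are more likely to hold both. For Erbb3 with Erbb4 in valve interstitial-like cells the count was 17 of 5199, against a product of 6.94. These counts are a description of detection, with depth not held fixed. Over 63 points (9 classes by 7 WT libraries) and 11819 genes, the genes whose log levels correlated best with Nrg1 were Col23a1 (Pearson's r = 0.90), Sall1, Cytl1, Clec4g and Ece1, and with Hbegf Olfml2a (r = 0.81), Nckap5, Fst, Ace and Cyp26b1. For Erbb3 they were Mstn (r = 0.85), Msx2, Npy, Adamts19 (r = 0.82) and Btn1a1, for Egfr Mmp16 (r = 0.90), Islr, Mrc2, Adamts2 and Lphn3, for Erbb4 Baiap2l1 (r = 0.74), Epb4.1l3, Dsp, Irs1 and Tnfrsf19, and for Erbb2 Cacna2d1 (r = 0.67), Col4a6, Obsl1, Vash2 and Aes. Among the members themselves the highest correlation was that of Erbb3 with Erbb4 (r = 0.54). Points of 1 library share its depth, and those of 1 class share its cells, so no test was made.

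The second question was whether loss of Adamts19, a secreted protease of the valves, went with a change in any member. Of 60 combinations of a member with all cells or a class, 27 passed the filter on low counts and were tested with edgeR on UMI sums per library, and the other 33 were too sparse. Only Hbegf was called at an adjusted p under 0.05, and it rose in 2 classes. The other 25 tests were not called (8 of the 27 had an unadjusted p under 0.05). Such p-values were common among all genes tested with edgeR: 2137 of 13445 over all cells and 1890 of 11268 in cardiomyocyte-like cells. In fibroblast-like cells they were 1281 of 8579, and in macrophage-like cells 275 of 3009. Nrg1 and the 4 receptors were called in no class.

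Hbegf rose in cardiomyocyte-like cells, the class where its level is lowest. The WT libraries had 47.5, 58.1 and 67.6 CPM (lowest, median and highest of 7) and the KO libraries 73.0, 89.8 and 95.4 CPM (of 8). Every KO library was above every WT library, and the ratio of the group means was 1.52. Here and below, the share of all genes whose groups do not overlap was not counted, so such a separation has no background beside it. The log2 fold change was 0.59 ± 0.09 (SE; edgeR quasi-likelihood test, adjusted p = 0.0114). Of the 4 members tested in this class 1 was called, against 1.33% of the 11268 genes tested there (0.745% called higher in KO). Leaving out any 1 library kept the call. WT replicate 5, which shares the flow cell of the KO libraries, had the lowest value of all (47.5 CPM). With flow cell as a covariate, where that library alone carries the comparison, the log2 fold change was 0.89 ± 0.21 and not called (adjusted p = 0.36), and with sums per litter, 4 litters against 3, it was 0.64 ± 0.14 (adjusted p = 0.216).

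Hbegf was also summed by kind of cardiomyocyte, as a description with no further test. Its level in atrial-type cells ranged from 45.2 to 62.0 CPM in WT and from 65.8 to 116 CPM in KO, and in other ventricular cells from 45.6 to 66.5 and from 69.8 to 105 CPM, without overlap in either. Trabecular-type cells, with 48 to 261 cells a library, had 56.9 to 79.9 CPM in WT and 31.5 to 130 CPM in KO, and these ranges overlapped. Trabecular-type cells made up a median of 3.96% of the kept cells of WT libraries and 2.52% of those of KO libraries. For atrial-type cells the medians were 8.12% and 11.3%. The atrial-type sum joins a cluster with 47.9 CPM of Hbegf over all libraries and another with 146 CPM. The part of such cell shares in the Hbegf result was not tested.

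Hbegf also rose in epicardial-like cells, the outer layer of the heart. WT libraries had 65.0, 97.1 and 258 CPM and KO libraries 140, 314 and 463 CPM. Only WT replicate 1, at 258 CPM, lay within the KO range, and the next WT library had 128 CPM. The log2 fold change was 1.32 ± 0.26 (SE; edgeR, adjusted p = 0.0161), with a ratio of group means of 2.49. It was the only member tested there, against 0.533% of 4693 genes called (0.362% higher in KO). The sums are small: a library held 26 to 205 epicardial-like cells, and WT replicate 5 had 5 Hbegf UMIs in 26 cells. The call held without any 1 library (1.19 to 1.59) and with sums per litter, and was lost with flow cell as a covariate (1.80 ± 0.75; adjusted p = 0.344).

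In endocardial-like cells Hbegf was not called with all libraries, and leaving out either of 2 libraries brought it past the threshold. WT libraries had 44.6, 58.8 and 119 CPM and KO libraries 58.6, 130 and 189 CPM, with a log2 fold change of 0.80 ± 0.21 (edgeR, adjusted p = 0.0863). The highest WT library was replicate 4, and the lowest KO library was replicate 6. Without WT replicate 4 the value was 0.98 (adjusted p = 0.0452), without KO replicate 6 it was 0.91 (adjusted p = 0.0272), and DESeq2 called it with all libraries (adjusted p = 0.0288). It also passed without the 5% of cells with the highest doublet scores (0.87; adjusted p = 0.0498) and without WT replicates 1 to 4 (1.21; adjusted p = 0.00478). In fibroblast-like cells it was 0.71 ± 0.18 (adjusted p = 0.0977), with 49.0, 98.6 and 109 CPM in WT and 96.7, 131 and 224 CPM in KO, and DESeq2 called it there too (adjusted p = 0.0239).

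Hbegf was not called in the remaining classes. Its log2 fold change was 1.02 ± 0.35 in macrophage-like (adjusted p = 0.336), 0.52 ± 0.33 in mural-like (adjusted p = 0.617), 0.45 ± 0.26 in vascular endothelial-like (adjusted p = 0.579) and -0.18 ± 0.31 in valve interstitial-like cells (adjusted p = 0.845). Without WT replicate 5, the WT library on the KO flow cell, Hbegf in valve interstitial-like cells turned to 0.07. In valve endothelial-like cells, where its level is highest, WT libraries had 387, 802 and 946 CPM and KO libraries 551, 916 and 1821 CPM. The groups overlapped there (0.42 ± 0.21; edgeR, adjusted p = 0.50). The estimate was above 0 in 8 of the 9 classes, which are sums of the same libraries and so are not independent. Among all genes tested, the share above 0 in a class ran from 45.1% (fibroblast-like) to 49.9% (valve endothelial-like). The shares of all genes called were 0.287% in endocardial-like, 0.163% in fibroblast-like, 0.0997% in macrophage-like, 0.0166% in mural-like, 0.0652% in valve endothelial-like and 0.185% in valve interstitial-like cells. In vascular endothelial-like cells edgeR called 0 of 4118 genes (400 at an unadjusted p under 0.05), where DESeq2 called 11. Over all cells it was 0.49 ± 0.16 (adjusted p = 0.137; 0.208% of genes called). In such whole-library sums, more cells of a class and more RNA per cell cannot be told apart.

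Free RNA and stress genes were measured beside this. The share of UMIs from 8 haemoglobin genes in cardiomyocyte-like cells was 0.0428 to 0.690% in WT and 0.0427 to 0.171% in KO libraries, and in epicardial-like cells 0.0701 to 0.902% and 0.0547 to 0.293%. Cardiomyocyte marker genes made up 0.474 to 0.758% of epicardial-like UMIs in WT and 0.358 to 0.746% in KO. Of the immediate early genes, which respond to handling as well as to growth factors, Fos changed by 0.22 ± 0.27 and Egr1 by 0.12 ± 0.21 in cardiomyocyte-like cells (adjusted p = 0.735 and 0.821), and by -0.11 ± 0.26 and -0.32 ± 0.22 in epicardial-like cells (adjusted p = 0.934 and 0.616). Ier3, also an immediate early gene, rose in cardiomyocyte-like cells (0.71 ± 0.14; adjusted p = 0.0204) and was 0.73 ± 0.18 in epicardial-like cells (adjusted p = 0.0668). Of the list of growth-factor-responsive genes that holds all 3, 7 of 7 tested were above 0 in cardiomyocyte-like and 2 of 5 in epicardial-like cells. Among all genes tested, 45.2% and 47.8% were above 0 in these 2 classes. Ier3 in cardiomyocyte-like cells was the only call of the list in them. In the other classes, 5 of 5 genes of the list were above 0 in endocardial-like and 5 of 5 in mural-like cells. The counts were 5 of 7 in fibroblast-like, 4 of 7 in valve interstitial-like and 1 of 4 in macrophage-like cells. Vascular endothelial-like and valve endothelial-like cells each had 3 of 5. The part of these measures in the Hbegf result was not tested.

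**Figure D3:**
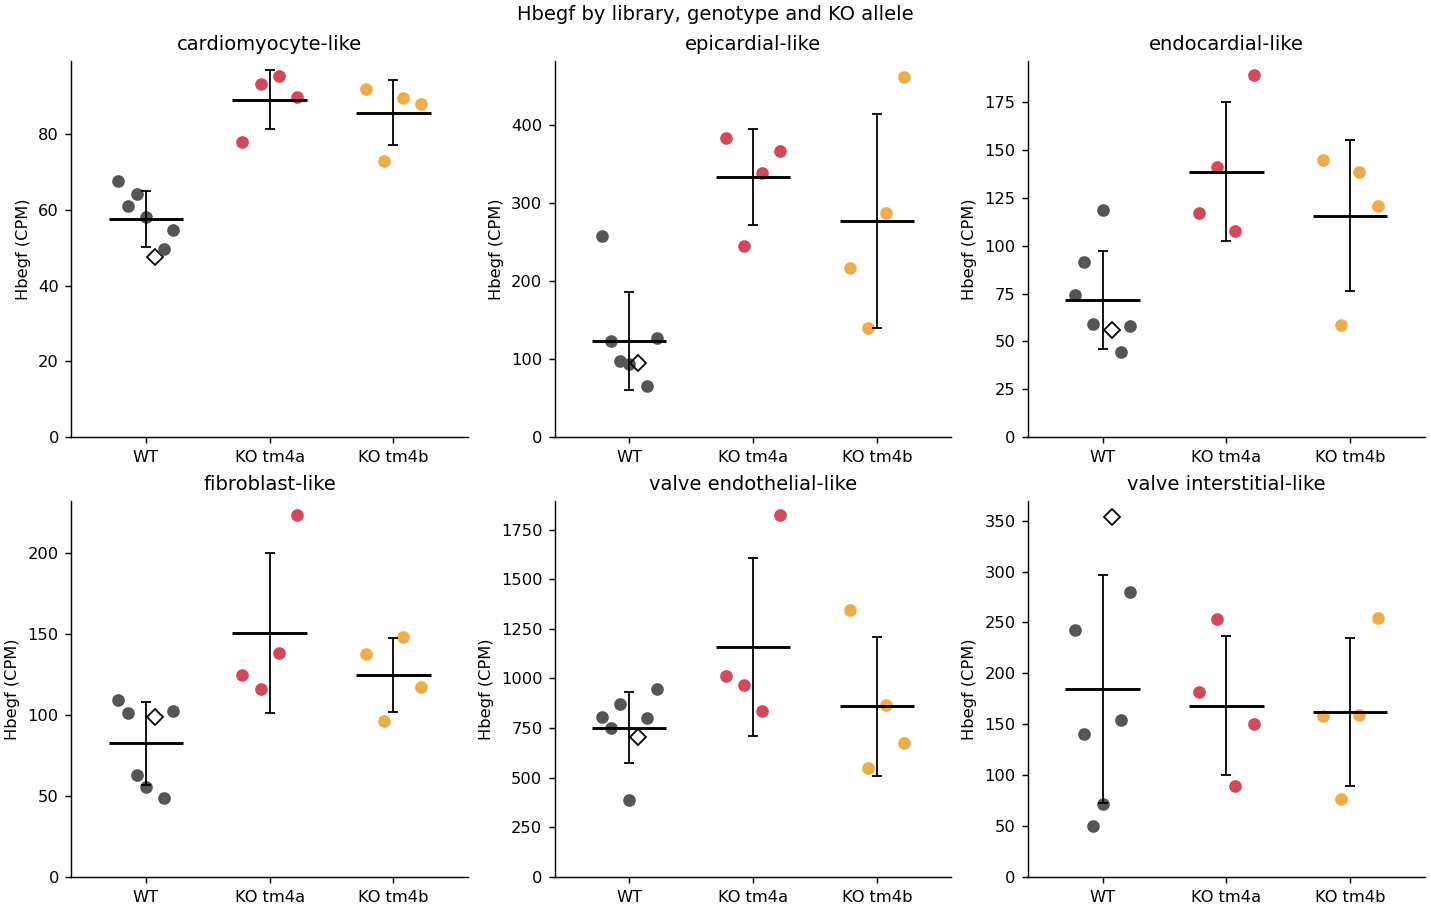
Hbegf in 6 cell classes by library, in CPM of the class sum on a linear axis from 0. Points are libraries (grey WT, red KO tm4a, yellow KO tm4b), the open diamond is WT replicate 5, which shares the flow cell of the KO libraries, and bars are the mean and SD. In cardiomyocyte-like cells all KO libraries lie above all WT libraries (73.0 to 95.4 against 47.5 to 67.6 CPM).

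The other ligand was not called by genotype. Nrg1 in endocardial-like cells had 32.3, 39.6 and 54.8 CPM in WT and 28.5, 41.7 and 57.3 CPM in KO libraries, with a log2 fold change of 0.05 ± 0.17 (edgeR, adjusted p = 0.926). In valve endothelial-like cells it was too sparse for the fit, with 13.0 to 45.4 CPM in WT and 7.81 to 105 CPM in KO.

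Among the receptors, Erbb2 was lower in KO in most classes without being called. Over all cells it was -0.32 ± 0.14 (adjusted p = 0.255), in fibroblast-like cells -0.64 ± 0.24 (adjusted p = 0.233), in valve interstitial-like cells -0.51 ± 0.31 (adjusted p = 0.484) and in cardiomyocyte-like cells -0.26 ± 0.16 (adjusted p = 0.405), while in endocardial-like cells it was 0.18 ± 0.26 (adjusted p = 0.834). Fibroblast-like cells had 7.42, 20.4 and 30.6 CPM of Erbb2 in WT and 9.04, 13.1 and 16.6 CPM in KO, and every KO library was below the WT median. WT replicate 1 stood above all others over all cells (47.6 CPM) and in cardiomyocyte-like cells (60.3 CPM), and without it the value was -0.18 over all cells, -0.13 in cardiomyocyte-like and -0.22 in valve interstitial-like cells.

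Erbb3 was close to 0 in both classes where it was tested: it was -0.01 ± 0.23 in cardiomyocyte-like cells (adjusted p = 0.992) and -0.05 ± 0.27 in valve interstitial-like cells (adjusted p = 0.957), where WT had 14.8 to 36.1 and KO 12.9 to 34.3 CPM. Erbb4 was 0.06 ± 0.16 in cardiomyocyte-like cells (adjusted p = 0.898) and -0.45 ± 0.30 in valve interstitial-like cells (adjusted p = 0.523). Egfr was 0.40 ± 0.30 in valve interstitial-like (adjusted p = 0.577), 0.15 ± 0.23 in fibroblast-like (adjusted p = 0.814) and 0.24 ± 0.26 in mural-like cells (adjusted p = 0.799). A p that misses the threshold does not show that the groups are alike: in the valve interstitial-like class the standard errors of the 4 receptors ran from 0.27 to 0.31.

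**Figure D4:**
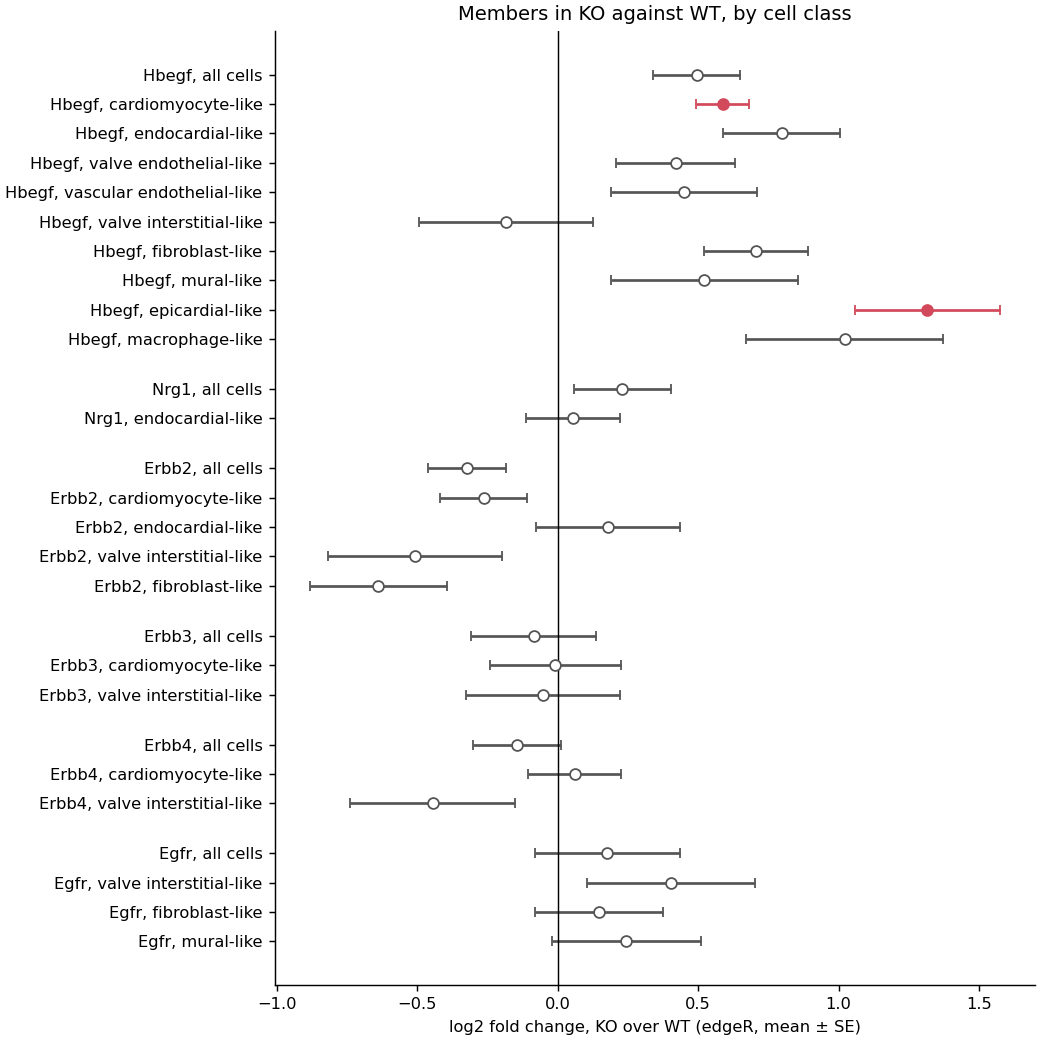
KO against WT log2 fold change of each member in each class tested, from edgeR, with bars of 1 standard error. Filled red points passed an adjusted p of 0.05 (Hbegf in cardiomyocyte-like and epicardial-like cells), and open grey points did not.

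Whether a genotype difference itself varied between 2 classes was tested on the within-library class differences, with an exact permutation test of the genotype labels. None of the 48 tests passed after adjustment over all genes, and 1 had an unadjusted p under 0.05. In none of the 9 pairs did any gene pass, so the share called was 0% throughout. The number of possible relabellings bounds the smallest p of this test. A pass after adjustment over all genes thus needed many genes at that bound, so the absence of calls says little. The 1 low p belonged to Hbegf in epicardial-like minus fibroblast-like cells, where the class difference was 0.46 ± 0.39 (SD, n = 7) in WT and 1.05 ± 0.48 (n = 8) in KO, a gap of 0.59 (exact permutation p = 0.0228; adjusted p = 0.632). That Hbegf changed in some classes and not in others is thus not shown.

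The 2 KO alleles were compared with each other, 4 libraries against 4. Of 27 member tests, 1 was called: Egfr over all cells was higher in tm4b than in tm4a libraries, while 15.3% of the 13531 genes tested were called. The tm4a libraries had 4.09, 4.97, 6.49 and 7.14 CPM and the tm4b libraries 8.04, 10.1, 11.8 and 12.3 CPM. The groups did not overlap, but the WT libraries spanned both (3.18 to 13.2 CPM). The log2 fold change was 0.77 ± 0.19 (SE; edgeR, adjusted p = 0.0199), and it was lost without KO replicate 7 (0.70; adjusted p = 0.0665) or KO replicate 8 (0.74; adjusted p = 0.0521). Within the classes that hold most Egfr UMIs it was 0.06 ± 0.24 in fibroblast-like, 0.45 ± 0.36 in mural-like and 0.41 ± 0.37 in valve interstitial-like cells (adjusted p = 0.923, 0.551 and 0.556). Mural-like cells, where Egfr is highest, were 0.580 to 6.55% of kept cells in tm4a and 3.51 to 11.3% in tm4b libraries, and the part of this in the result was not tested.

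Hbegf was not called between the alleles in the classes where it rose. It was -0.16 ± 0.10 in cardiomyocyte-like (adjusted p = 0.311) and -0.31 ± 0.25 in epicardial-like cells (adjusted p = 0.54). Erbb4 in valve interstitial-like cells had 7.21, 9.01, 10.9 and 23.5 CPM in tm4a and 20.7, 24.4, 25.7 and 34.6 CPM in tm4b libraries. Only tm4a replicate 4 reached the tm4b range, and the test missed the threshold (1.11 ± 0.37; adjusted p = 0.0919), on 3 to 28 UMIs a library. Without that library it passed (1.46; adjusted p = 0.0386). The shares of genes called between alleles were 12.6% in cardiomyocyte-like, 8.47% in fibroblast-like, 4.15% in valve interstitial-like, 2.92% in epicardial-like, 1.56% in vascular endothelial-like, 0.652% in endocardial-like, 0.56% in valve endothelial-like and 0.506% in mural-like cells. In macrophage-like cells edgeR called 0 genes (356 at an unadjusted p under 0.05) and DESeq2 called 19.

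**Figure D5:**
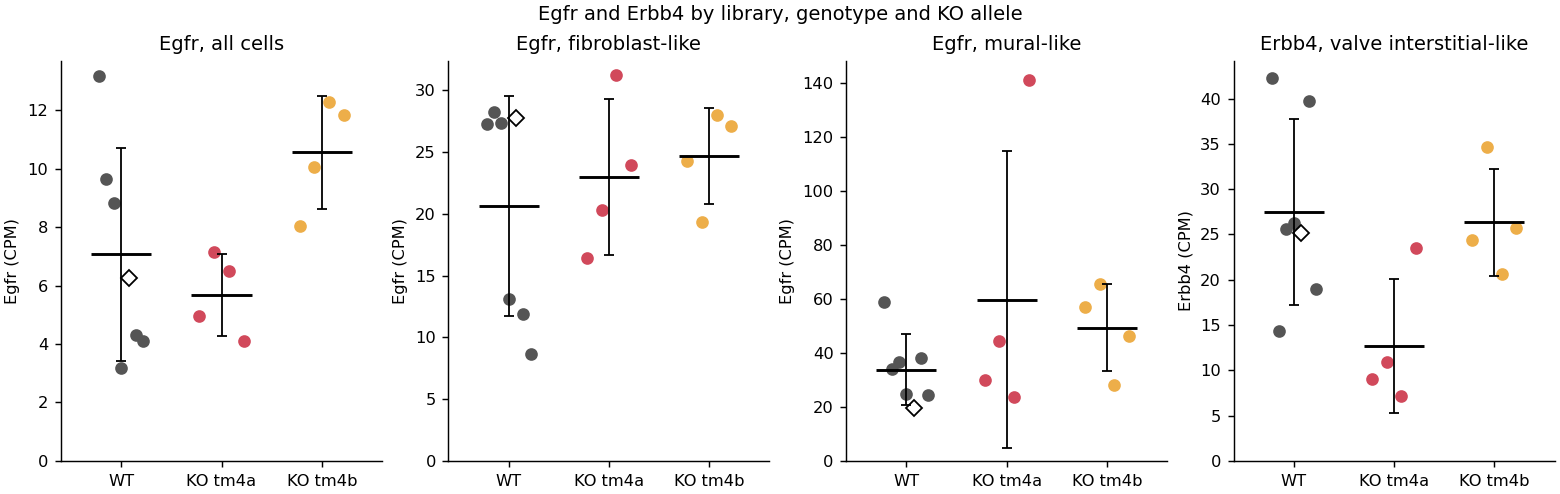
Egfr over all cells and in 2 classes, and Erbb4 in valve interstitial-like cells, by library, in CPM on linear axes from 0. Points are libraries (grey WT, red KO tm4a, yellow KO tm4b; open diamond WT replicate 5) and bars are mean and SD. Over all cells the 4 tm4b libraries (8.04 to 12.3 CPM) lie above the 4 tm4a libraries (4.09 to 7.14 CPM), and the WT libraries span both.

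Of 63 other genes of the pathway, in 6 lists, 61 are in the table, and 2 were called by genotype in cardiomyocyte-like cells. Of all 11268 genes tested in that class, 1.33% were called (0.745% higher in KO). The number of genes tested there is given with each list below. Other EGF-family ligands were scarce: 2 of 9 were dense enough to test in cardiomyocyte-like cells, and none was called (Egf 0.33 ± 0.37 and Btc 0.05 ± 0.23). Btc, betacellulin, was the most abundant of them, with 25.6 ± 19.4 CPM in mural-like cells (SD, n = 15). Of the 10 tested genes that shed or accompany the ligands, none was called in cardiomyocyte-like cells. Adam9, a sheddase, came nearest (0.49 ± 0.14; adjusted p = 0.0755), and Rhbdf1, which controls the sheddase ADAM17, was -0.72 ± 0.22 (adjusted p = 0.107).

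Downstream of the receptors, 1 of 15 tested adaptor and Ras-MAPK genes rose in cardiomyocyte-like cells and none fell, with a median log2 fold change of -0.09 over the list against -0.03 over all genes tested there. That gene was Grb2, the adaptor that links phosphorylated receptors to Ras. It had 75.0, 100.4 and 122 CPM in WT and 118, 148 and 166 CPM in KO libraries, a log2 fold change of 0.55 ± 0.10 (edgeR, adjusted p = 0.0135). The call was lost with flow cell as a covariate (0.36 ± 0.22; adjusted p = 0.719) and with sums per litter (0.49 ± 0.14; adjusted p = 0.355). Of 7 responsive genes tested there, 1 rose: Ier3, an immediate early gene, from 117, 176 and 197 CPM in WT to 218, 269 and 379 CPM in KO libraries without overlap (0.71 ± 0.14; adjusted p = 0.0204). This call was lost in the same 2 settings, at 0.56 ± 0.32 with flow cell (adjusted p = 0.692) and 0.74 ± 0.15 per litter (adjusted p = 0.189). The list had a median of 0.12.

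None of the 7 PI3K-Akt genes and none of the 12 negative regulators tested in cardiomyocyte-like cells was called, with medians of -0.16 and -0.04. Lrig1, which promotes receptor breakdown, was -0.60 ± 0.19 there (adjusted p = 0.117). In endocardial-like cells Errfi1, which binds and inhibits EGFR-family kinases, was 0.90 ± 0.24 (adjusted p = 0.0914) and Pik3r1, a regulatory subunit of PI3K, was -0.50 ± 0.20 (adjusted p = 0.26). In valve interstitial-like cells Akt1 was -0.59 ± 0.19 (adjusted p = 0.174) and Fos 0.74 ± 0.23 (adjusted p = 0.139). No gene of the 6 lists was called by genotype in the endocardial-like, valve interstitial-like or epicardial-like class.

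Between the KO alleles, 6 of these genes were called in cardiomyocyte-like cells, where 12.6% of all genes were; those named here were chosen after their values were seen. Ier3 was lower in tm4b than in tm4a at -0.49 ± 0.10 (edgeR, adjusted p = 0.00716), and Ptpn11, the phosphatase SHP2, was higher at 0.57 ± 0.12 (adjusted p = 0.00869). Both calls held with any 1 library left out. Myc was lower at -0.9995 ± 0.26 (adjusted p = 0.0208), a call that was lost without KO replicate 7 (-0.85; adjusted p = 0.0714). Grb2, which was also called by genotype in this class, was higher in tm4b at 0.27 ± 0.08 (edgeR, adjusted p = 0.0395). That call was lost without KO replicate 5 (0.26; adjusted p = 0.0981), among other libraries. Cd9, a tetraspanin that binds pro-HB-EGF, was lower in tm4b valve interstitial-like cells at -0.62 ± 0.14 (adjusted p = 0.0177), which was lost without KO replicate 5 (adjusted p = 0.0663), 7 (adjusted p = 0.0697) or 8 (adjusted p = 0.0504). Cd9 was also called lower in tm4b over all cells (-0.55; edgeR, adjusted p = 0.0151). The same held in endocardial-like (-0.80; adjusted p = 0.0354) and fibroblast-like cells (-0.91; adjusted p = 0.0254), both lost without KO replicate 5, among other libraries.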

How the data were processed

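Drop-seq libraries of polyadenylated RNA were analysed from the table of UMI counts per gene and cell that the authors deposited for all 15 libraries. The submitters' processing notes name bcl2fastq 2.17, Seurat 2.1 and the genome mm10; no source used here gives the aligner or the counting rules. Cells with at least 300 genes and at most 30% mitochondrial UMIs were used (50899 of 55152 barcodes). Scrublet called 124 cells (0.244%) as doublets; a share this low means that the caller did not work, so the 5% of cells with the highest scores were left out as an alternative. Cells were clustered with scanpy 1.11.5 (2000 variable genes, 30 components, 20 neighbours, Leiden resolution 1.0), without the members, the pathway lists and Adamts19, and named from marker lists.

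UMIs were summed per library and class (at least 10 cells). KO was compared with WT, and tm4b with tm4a, with edgeR 4.0.16 (quasi-likelihood test, TMM scaling, filterByExpr) on these counts, fitted over all genes with Benjamini-Hochberg adjustment and no covariate. DESeq2 1.42.0 was an alternative. Class differences were tested within libraries by exact sign flips, and their genotype differences by exact permutation, both two-sided, on log2(CPM + 10) for genes with at least 20 UMIs in the 2 classes. The planned adjustment of those tests was over members and pairs; the printed values are adjusted over all genes of a pair instead. The fits and exact tests were tested on simulated data. Thinning, other pseudocounts, another clustering, other scaling and left-out libraries were also tried.

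The 6 members and the pathway and marker lists were chosen with earlier results of these data known. Named in the text are the members, every list gene called between KO and WT in a class, the 2 genes of each list with the lowest p in cardiomyocyte-like, endocardial-like and valve interstitial-like cells, the largest difference between classes in each direction, and for each member the 5 genes with the highest correlation among genes with at least 10 CPM in a class. One gene that this rule names is not reported here. One WT library carries replicate 4 in its title and another number in its description; the title was used.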

Additional observations from a re-analysis of the deposited data

Results flagged for a closer look

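In 54 combinations of a member, a class and a genotype, each with 7 or 8 libraries, the highest or lowest library was compared with the range of its group by Dixon's criterion, which chance meets in about 1 of 20 groups. In 7 combinations a library lay apart. WT replicate 1 was high in 3 of them, with 47.6 CPM of Erbb2 over all cells, 60.3 CPM of Erbb2 in cardiomyocyte-like cells and 258 CPM of Hbegf in epicardial-like cells. KO replicate 4 was high with 224 CPM of Hbegf in fibroblast-like cells and 141 CPM of Egfr in mural-like cells, the latter in 15 cells. KO replicate 3 was high with 26.4 CPM of Erbb2 in valve interstitial-like cells, and WT replicate 3 with 7.27 CPM of Erbb3 in cardiomyocyte-like cells. Between genotypes, the epicardial-like minus fibroblast-like difference of Hbegf was 0.59 larger in KO (exact permutation p = 0.0228), which did not hold after adjustment over all genes (adjusted p = 0.632).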

How the results depend on the processing

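The 2 Hbegf calls between genotypes became 4 with DESeq2 (adding fibroblast-like and endocardial-like cells), 4 without a low-count filter (adding endocardial-like and macrophage-like cells), 1 with sums per litter, 0 with flow cell as a covariate and 2 to 3 with 1 library left out. All genes called over the 10 sums numbered 263, and 1391 with DESeq2, 485 without the filter, 34 with flow cell, 21 per litter, 3156 without WT replicates 1 to 4, and 79 (without KO replicate 8) to 1324 (without WT replicate 3) with 1 library left out. In cardiomyocyte-like cells the 150 genes became 423 with DESeq2, 3 with flow cell, 2 per litter, 880 without WT replicates 1 to 4, and 50 to 472 with 1 library left out. In epicardial-like cells the 25 became 57, 3 and 8 with DESeq2, flow cell and per litter, 85 without the filter, 47 without the highest doublet scores, 14 without WT replicates 1 to 4 and 9 to 37 with 1 library left out.

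Hbegf in cardiomyocyte-like cells was 0.89 with flow cell and 0.64 per litter, neither called, and 0.54 to 0.63 with 1 library left out, and in epicardial-like cells 1.80 with flow cell, not called, and 1.19 to 1.59. Replicate numbers only name the libraries: same-numbered WT and KO libraries correlated at -0.30 to 0.13, and 0 of 7 pairs matched best. With a replicate block, Hbegf was 0.61, Grb2 0.54 and Ier3 0.75 in cardiomyocyte-like cells (none called), the member calls were 1, and genes called were 30 in all, 3 in cardiomyocyte-like and 3 in epicardial-like cells. Between alleles, member calls were 2 without the filter and 0 to 2 with 1 library left out, and Egfr was 0.67 to 0.90, not called at 0.70 without KO replicate 7 and 0.74 without KO replicate 8.

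There were 27 member calls between classes, against 10 in the WT libraries alone, where fewer libraries raise the smallest p. Of the differences given in the report, those not passing there were Hbegf in valve endothelial-like minus endocardial-like (3.23, and 2.86 in KO alone, also not passing), Nrg1 in vascular endothelial-like minus endocardial-like (-2.24), Erbb3 (1.37) and Erbb4 (1.47) in valve interstitial-like minus fibroblast-like, Erbb4 (1.62) and Hbegf (0.46) in epicardial-like minus fibroblast-like, and Erbb2 (0.40, and 0.28 thinned), Erbb4 (0.42) and Erbb3 (-0.22, and -0.34 in KO alone, also not passing) in atrial-type cells.

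Directions that turned were all of uncalled values. With flow cell these were Erbb3 (0.073) and Erbb4 (0.18) over all cells, Erbb3 in cardiomyocyte-like (0.24) and valve interstitial-like cells (0.34), Egfr in fibroblast-like (-0.26), Nrg1 (-0.069) and Erbb2 (-0.34) in endocardial-like and Hbegf in mural-like cells (-0.23). Without WT replicates 1 to 4, Erbb3 was 0.21 over all cells, 0.13 in cardiomyocyte-like and 0.24 in valve interstitial-like cells, and Erbb4 0.26 over all cells. Erbb3 in cardiomyocyte-like cells was also 0.0016 with DESeq2, 0.0051 without the filter, 0.050 per litter and 0.027 without the highest doublet scores, Erbb3 in valve interstitial-like cells 0.033 per litter, and Egfr in mural-like cells -0.12 at Leiden resolution 1.5. With 1 library left out, Erbb3 ran from -0.19 to 0.069 over all cells, -0.11 to 0.15 in cardiomyocyte-like and -0.16 to 0.12 in valve interstitial-like cells, Erbb4 from -0.0020 to 0.20 in cardiomyocyte-like, Hbegf from -0.36 to 0.071 in valve interstitial-like and Nrg1 from -0.041 to 0.14 in endocardial-like cells. The causes were not tested. Depth limits the sparse members: 33 of 60 combinations were too sparse to test.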
